A study of Mus musculus with 8 samples.

Results

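The smooth muscle and troponin genes are 10 genes of the contractile thin filament and its partners, namely Tnnt2, Tagln, Acta2, Actg2, Cnn1, Cnn2, Myl9, Tpm1, Tpm2 and Csrp1. Their members were taken by symbol as every probe set that the platform annotation gives to 1 of these symbols alone, which gave 21 of the 45037 analysed probe sets, for 10 of the 18193 genes with a probe set of their own. Genes were chosen as a muscle and cytoskeleton panel with earlier results of these arrays in view. The stimulated group held 4 mouse epithelial cell lines treated for 24 h with recombinant TGF-β1 and EGF, each at 3 ng/mL, and the resting group held the same 4 lines without the factors. EpH4 and NMuMG come from mammary gland and mProx and MCT from kidney tubules, and EpH4 is labelled as a line that resists epithelial-mesenchymal transition (EMT). All cells, resting ones included, had spent 24 h in a medium with transferrin and insulin in place of serum before treatment. Each line gave 1 stimulated and 1 resting array, so the line is the replicate. Nothing in the labels says whether a line is 1 clone or how many cultures lie behind an array, so the spread may hold technical spread. A p-value here reflects the spread among lines only in part. The fit draws the spread of each gene toward that of other genes of like level.

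In a contractile cell, actin filaments are coated with tropomyosin and slide along myosin. Striated muscle switches this machinery through the troponin complex on tropomyosin. Smooth muscle has no troponin and relies on phosphorylation of the myosin regulatory light chain, with calponin and transgelin bound along the actin. TGF-β is a well known inducer of α-smooth muscle actin and transgelin in myofibroblasts, and epithelial cells undergoing EMT often switch on part of that set. Serum response factor (SRF), with its myocardin-related cofactors, is the classical activator of these promoters through the CArG box.

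Levels are given as log2 signals after quantile normalization across the 8 arrays, and a change is stimulated minus resting on that log2 scale. A level under 5.27, the filter level of the tests, is called dim, and a change that rests on a dim value has no exact size. Signals of different probe sets are not comparable, so levels are compared only between arrays. The array medians lay between 41.5 and 59.7 on the deposited signal scale. Each gene was tested through the probe set with the highest mean level, among 12640 genes tested in all. Of the 10 members 9 were tested, and Cnn1 was below the filter.

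Of the whole set, Tnnt2 stood highest in its response. Its level was at least 2-fold higher after stimulation in each of the 4 lines, which held for 8 of 12640 tested genes (0.0633%) and for 1 of the 9 tested members. Over the 3 lines other than EpH4 it held for 21 genes (0.166%), and again for Tnnt2 alone of the members. Actg2 was higher in each line, over dim resting values in 3, and Acta2 in 3 of 4 lines. Tagln was higher in mProx and NMuMG and dim on both arrays of EpH4 and MCT. None of these genes passed the test. The abundant actin-binding genes Cnn2, Tpm1 and Csrp1 differed between states by at most 0.53 in any line on the probe sets that represent them, and another Tpm1 probe set by up to 0.84. Over the 9 tested members the median change averaged over the 4 lines was 0.25, against 0.01 for all tested genes, as a description only.

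**Figure D1:**
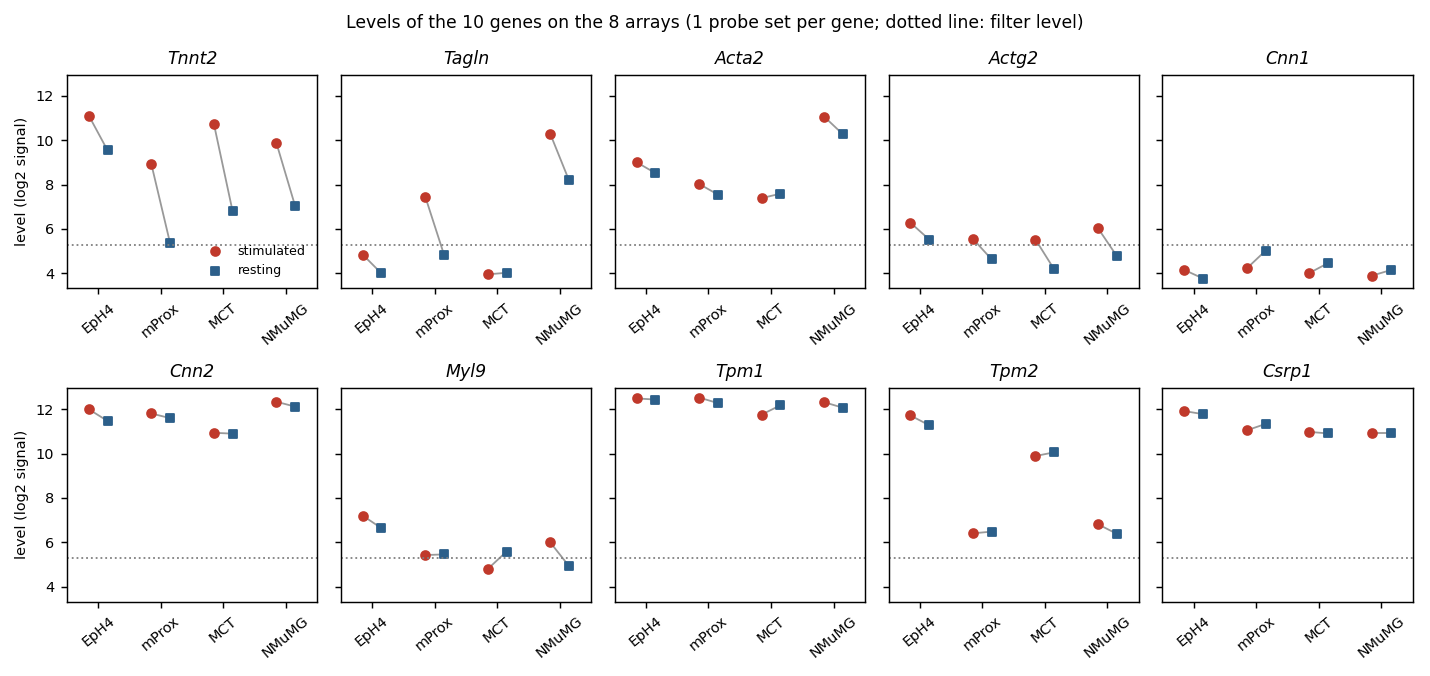
Log2 levels (y axis) of the probe set that represents each gene, in stimulated (red circles) and resting (blue squares) cells of the 4 lines (x axis), 1 array per point, with grey lines joining the arrays of a line. The dotted line is the filter level of 5.27. Tnnt2 drops from left to right within each line because the stimulated array, drawn on the left, is the higher one. Levels are comparable within a panel, not between panels.

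Tnnt2 encodes cardiac troponin T, the subunit that anchors the troponin complex to tropomyosin. In stimulated cells its level was 11.11, 8.92, 10.74 and 9.88 in EpH4, mProx, MCT and NMuMG, against 9.54, 5.35, 6.79 and 7.03 in resting cells of the same lines. On the deposited signal scale these are 2384, 512.9, 1454.8 and 856.3 in stimulated cells, against 993.5, 34.8, 102.8 and 92.5 in resting cells. Each stimulated array was above its resting partner, yet the groups overlapped, since resting EpH4 was above stimulated mProx. Resting mProx lay just above the filter level, so the size of its change is close to the limit of what the array can measure.

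The change of Tnnt2 was 1.57, 3.57, 3.95 and 2.85 in EpH4, mProx, MCT and NMuMG, or 2.97-fold, 11.8-fold, 15.5-fold and 7.22-fold. Among the 12640 tested genes it was the number 37 increase in EpH4, number 3 in mProx, number 8 in MCT and number 6 in NMuMG. In the 3 lines not marked as resistant Tnnt2 rose by 3.46 ± 0.56 (SD, n = 3), with a standard error of 0.23 and an adjusted p of 0.0115 in limma. That standard error is smaller than the SD of these changes alone would give, since the fit borrows spread from other genes. The same holds for Tnnt2 in the 4 lines (standard error 0.34) and for Tagln (0.42). Tnnt2 had the smallest p of the 3-line comparison, in which 16 of 12640 genes (0.127%) passed and 1 of the 9 members did. Over all 4 lines the change was 2.98 ± 1.05 (SD, n = 4), and Tnnt2 did not pass (limma adjusted p = 0.0573). No gene of the 12640 passed there (0%), against 1469 (11.6%) at an unadjusted p under 0.05.

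The call of Tnnt2 in the 3 lines was lost without the filter (limma adjusted p = 0.0524), without the intensity trend (0.141) and without the line as a block (1.00). Leaving EpH4 out of the 4 lines is the 3-line fit itself (limma adjusted p = 0.0115) and no further check. Tnnt2 passed in the 4 lines after median centring (0.0212) and with an offset of 50 (0.0384). On the values as deposited it passed too (limma adjusted p = 6.55e-32), in a fit where 236 genes passed. The changes there were 1.25, 3.53, 3.69 and 3.07 in EpH4, mProx, MCT and NMuMG. A p this small does not come from the spread of these 4 changes alone, and its size is not read.

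Tnnt2 has 3 probe sets, and the values above are those of 1418726_a_at. The second, 1424967_x_at, marked by its suffix as open to cross-hybridisation, changed by 1.60, 3.74, 3.87 and 2.67 in EpH4, mProx, MCT and NMuMG. Its resting mProx value was dim (4.43), so the 3.74 has no exact size. Tested among 27022 probe sets, 1418726_a_at and 1424967_x_at passed in the 3 lines with the same limma adjusted p of 0.0190. The remaining one, 1440424_at, changed by 0.44, -0.21, -0.01 and -0.43 in the same order of lines, with levels from 4.32 to 6.49. It did not follow the other probe sets, and on the mean of all 3 the response was 1.97 in the 4 lines and 2.22 in the 3 lines. The probe sequences were not used here, so which part of the transcript it reads was not examined.

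**Figure D2:**
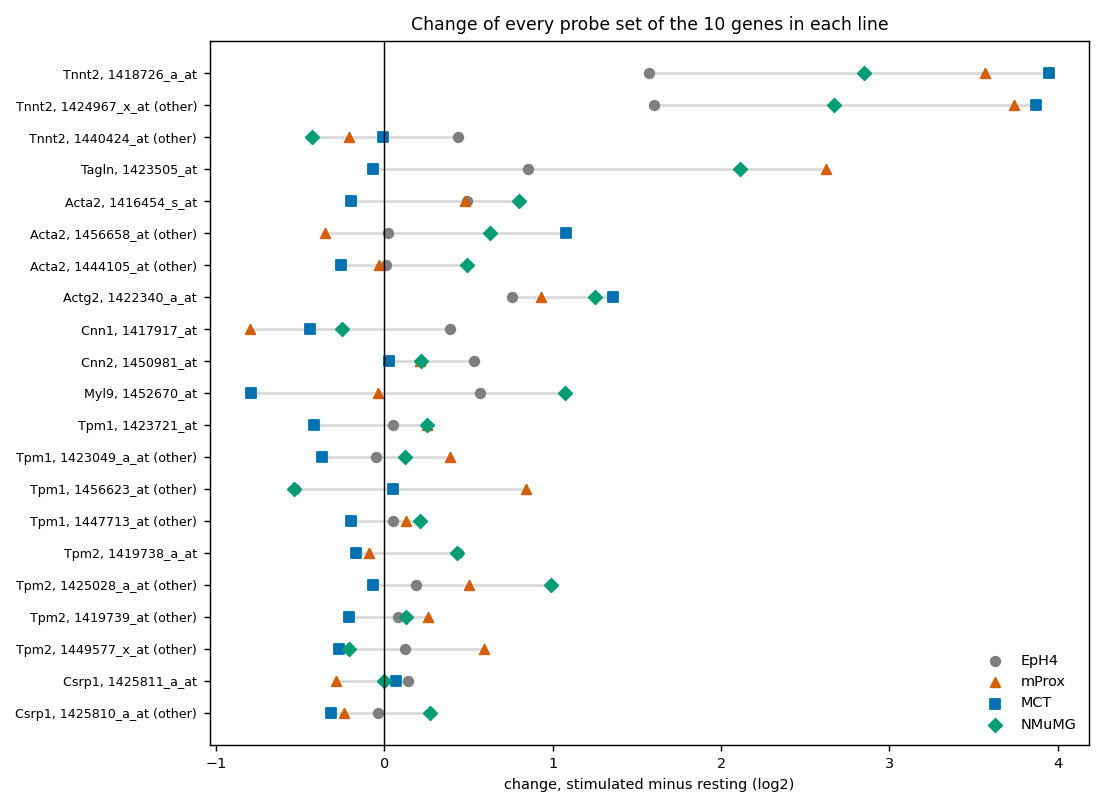
Change of each of the 21 probe sets (rows) in each of the 4 lines (symbols), as stimulated minus resting on the log2 scale (x axis), with a grey bar over the range of the lines. Rows marked as other do not represent their gene in the tests. For Tnnt2, 2 of 3 probe sets lie between 1.57 and 3.95, and the third lies between -0.43 and 0.44.

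The resting level of Tnnt2 differed between lines more than most genes did. Its span over the 4 resting arrays was 4.19, and a span of at least 3 was found in 3 of the 9 members (Tnnt2, Tagln and Tpm2), against 9.04% of all tested genes. That limit of 3 was set after the values were seen. Resting EpH4 was higher than the other 3 resting lines by 3.15 (SE 0.84, limma adjusted p = 0.447), which did not pass. EpH4 is 1 array per state. In each comparison of EpH4 with the other lines a gene's own spread thus comes from those 3 lines alone. EpH4 is assumed to vary like them. In that comparison 1 gene of all tested passed (0.00791%) and none of the 9 members did, while Tnnt2 alone among them had an unadjusted p under 0.05, as had 8.91% of all tested genes. The response of EpH4 was smaller than that of the other lines, 1.57 against 3.46, a difference of -1.89 (SE 0.44), or -1.02 on the mean of all probe sets. This difference did not pass either (limma adjusted p = 1.00, unadjusted p = 0.00355), and 0% of genes passed. The unadjusted p was under 0.05 for 3.43% of them.

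Both kidney lines had larger Tnnt2 changes than both mammary lines. The mean change was 3.76 in kidney and 2.21 in mammary lines, a difference of 1.55 (SE 0.42) that did not pass (limma adjusted p = 0.734). It was 0.91 without EpH4, 2.19 without NMuMG and 1.03 on the mean of all probe sets. No gene passed the kidney against mammary test of the response (0%), and 5.91% of genes were at an unadjusted p under 0.05, with Tnnt2, Myl9 and Tpm2 among them.

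Of the sequence around the Tnnt2 start, 1 of the 3 motifs searched was found, and the promoter is shown because this gene had the clearest response. It is from RefSeq (GRCm38.p6, chr1:135836084-135836383, plus strand) and runs 250 bases before to 50 after the start. Capitals mark CATTCC, the MCAT element that binds TEAD factors, which begins at -27 from the start.
Tnnt2: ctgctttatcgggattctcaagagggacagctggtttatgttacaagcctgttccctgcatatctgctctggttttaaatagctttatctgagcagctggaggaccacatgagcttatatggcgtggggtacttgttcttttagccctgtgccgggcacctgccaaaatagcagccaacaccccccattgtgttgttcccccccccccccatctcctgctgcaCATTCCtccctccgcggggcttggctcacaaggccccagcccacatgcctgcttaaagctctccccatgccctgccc

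The promoters of Cnn2 and Myl9 are shown because they were the members with an exact CArG box in this window. Exact means CC and GG around a run of A and T alone. Boxes with a G or C in that run, in Acta2 or any other promoter, were not counted. They are on chr10:79988350-79988649 and chr2:156775214-156775513, both on the plus strand, and the box, in capitals, begins at -56 for Cnn2 and at -161 for Myl9.
Cnn2: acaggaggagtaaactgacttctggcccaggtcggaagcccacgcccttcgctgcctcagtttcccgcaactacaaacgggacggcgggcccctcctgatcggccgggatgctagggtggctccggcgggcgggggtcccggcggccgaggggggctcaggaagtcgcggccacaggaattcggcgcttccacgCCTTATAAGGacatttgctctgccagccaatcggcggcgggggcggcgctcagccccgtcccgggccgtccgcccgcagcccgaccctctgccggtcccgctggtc
Myl9: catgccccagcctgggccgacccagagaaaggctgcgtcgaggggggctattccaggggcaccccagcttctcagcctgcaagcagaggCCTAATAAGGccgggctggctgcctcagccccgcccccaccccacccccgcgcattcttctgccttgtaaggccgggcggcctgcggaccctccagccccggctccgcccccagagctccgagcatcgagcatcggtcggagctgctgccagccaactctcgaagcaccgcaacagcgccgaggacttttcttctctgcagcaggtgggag

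The table of promoters held 10 entries for 8 of the members, all but Tagln and Actg2. An exact CArG box, searched on both strands, was in 2 of these 10, against 1.63% of 32851 promoters of the same length. CAGAC, a SMAD-binding sequence, was in 3 of 10 on either strand, for Acta2, Cnn1 and Csrp1, against 49.6% of all promoters. CATTCC was in 3 of 10, for Tnnt2, Acta2 and Tpm1, against 14.7%. The second Tnnt2 start in the table had none of the 3. Neither gene with an exact CArG box passed the test of the response. A match is a string of letters in a window, not a bound site.

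The smooth muscle actins were measured at different depths of signal, Acta2 well above the filter level and Actg2 near it. Acta2 encodes α-smooth muscle actin, the usual marker of myofibroblasts. Its level was 9.01, 8.03, 7.39 and 11.07 in EpH4, mProx, MCT and NMuMG after stimulation, against 8.52, 7.55, 7.59 and 10.27 at rest. NMuMG was the highest line in either state. The changes were 0.49, 0.48, -0.20 and 0.80, so 3 of 4 lines were higher and MCT was lower. The mean change of 0.39 ± 0.42 (SD, n = 4) did not pass (limma adjusted p = 0.425), nor did that of 0.36 ± 0.51 in the 3 lines (0.540). Without NMuMG these means were 0.25 and 0.14, and without MCT 0.59 and 0.64.

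At rest Acta2 averaged 7.57 in kidney and 9.40 in mammary lines, a difference of -1.82 (SE 0.68, limma adjusted p = 0.661). It was -0.95 without NMuMG, -2.70 without EpH4 and -0.60 on the mean of all probe sets. Acta2 was the single member at an unadjusted p under 0.05 in that comparison, as were 7.32% of all tested genes, and 0% of genes passed. The suffix of this probe set marks probes that transcripts of several genes may share, and signal from another actin in it was not tested. The other 2 Acta2 probe sets were dim on all 8 arrays, so they give no second reading.

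Actg2 encodes γ-smooth muscle actin, the enteric form. It was low but higher in each line, at 6.28, 5.55, 5.52 and 6.03 in stimulated EpH4, mProx, MCT and NMuMG, against 5.52, 4.62, 4.17 and 4.78 at rest. The groups met at 5.52, the level of stimulated MCT and of resting EpH4, and the resting arrays of the other 3 lines were dim. The changes of 0.76, 0.93, 1.36 and 1.25 had a mean of 1.07 ± 0.27 (SD, n = 4), without an exact size, since 3 of the 4 rest on dim values. With an offset of 1 the mean was 1.5, and with an offset of 50 it was 0.53 (1.69 and 0.55 in the 3 lines). Actg2 did not pass the test (limma adjusted p = 0.175 in the 4 lines and 0.189 in the 3). Its mean level over the arrays, 5.31, was just above the filter, which it reached through the stimulated arrays (5.85 in stimulated and 4.77 in resting cells). A gene that enters in this way had to be higher in stimulated cells, so its entry adds nothing to the count.

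Tagln encodes transgelin, an actin-bundling protein of smooth muscle. Its level was 4.84, 7.46, 3.95 and 10.29 in EpH4, mProx, MCT and NMuMG after stimulation, against 3.99, 4.84, 4.02 and 8.19 at rest. NMuMG was the line with a measurable level on both arrays, and there Tagln was 4.30-fold higher. Its mean level was 6.64 in stimulated and 5.26 in resting cells, so, like Actg2, it passed the filter through its stimulated arrays and had to be higher there. Nothing is read from its place among the members called. In mProx it was 6.15-fold higher over a dim resting value, while EpH4 and MCT were dim on both arrays. The changes ranked 31 in NMuMG and 13 in mProx among the 12640 tested genes. The mean of 1.38 ± 1.22 (SD, n = 4) did not pass (limma adjusted p = 0.294), nor did that of 1.55 ± 1.43 in the 3 lines (0.283). Without MCT the mean of mProx and NMuMG was 2.36, and Tagln passed (limma adjusted p = 0.0136). Without mProx the 3-line mean was 1.02. On the values as deposited Tagln passed in the 4 lines (limma adjusted p = 0.000390) and the 3 lines (9.97e-05), where 236 and 211 genes passed. The changes there were 0.68, 2.61, -0.1 and 2.5 in EpH4, mProx, MCT and NMuMG. Such p-values do not come from the spread of these changes alone, and their size is not read.

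The calponins stabilise actin filaments. Cnn1, the smooth muscle form, was dim on all 8 arrays, from 3.89 to 4.22 in stimulated and from 3.76 to 5.02 in resting cells, and was not tested. Cnn2, a calponin found in many non-muscle cells, was at 12.00, 11.81, 10.94 and 12.34 in stimulated EpH4, mProx, MCT and NMuMG, against 11.47, 11.60, 10.90 and 12.12 at rest. It was slightly higher in each line, by 0.03 to 0.53, with a mean of 0.25 ± 0.21 (SD, n = 4; limma adjusted p = 0.355). On the values as deposited MCT was lower for Cnn2, at -0.16. With Tnnt2 and Actg2 it made up the 3 of 9 tested members that were higher in each of the 4 lines, against 10.3% of all tested genes. Since Actg2 passed the filter through its stimulated arrays, the count is a description only. No member was lower in each of the 4 lines, against 9.25%. The same 3 members were higher in each of the 3 lines other than EpH4, against 18.5% of genes, and none was lower in each, against 16.9%.

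Tropomyosins lie along the actin filament and gate its access to myosin. Tpm1 was near the top of the scale on all arrays, from 11.76 to 12.53 in stimulated and from 12.07 to 12.44 in resting cells. Its changes were 0.05, 0.25, -0.42 and 0.25 in EpH4, mProx, MCT and NMuMG, with a mean of 0.03 ± 0.32 (SD, n = 4; limma adjusted p = 0.945). Of its other 3 probe sets, 1 shared the sign in each line.

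Tpm2, the β-tropomyosin of smooth and slow muscle, differed by line and little by treatment. It was at 11.72, 6.40, 9.89 and 6.81 in EpH4, mProx, MCT and NMuMG after stimulation, against 11.28, 6.48, 10.06 and 6.38 at rest. EpH4 and MCT were thus high and mProx and NMuMG low in either state, a split that follows neither the tissue nor the label of resistance. The other 3 Tpm2 probe sets placed EpH4 first and MCT second on stimulated and on resting arrays alike. Resting EpH4 exceeded the mean of the other 3 lines by 3.64 (SE 1.65), which did not pass (limma adjusted p = 0.614), again with 1 array on the EpH4 side.

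The response of Tpm2 was -0.13 in kidney and 0.43 in mammary lines (difference -0.56, SE 0.23, limma adjusted p = 0.838; -0.20 on the mean of all probe sets). In mProx, where this change was -0.09, the other probe sets gave 0.26 (1419739_at), 0.50 (1425028_a_at) and 0.59 (1449577_x_at). The 0.50 and 0.59 rest on dim values and have no exact size, while the 0.26 does not. The lower value of that line was thus not shared.

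Myl9 encodes a regulatory light chain of smooth muscle and non-muscle myosin. Its level was 7.20, 5.42, 4.79 and 5.99 in stimulated EpH4, mProx, MCT and NMuMG, against 6.63, 5.45, 5.58 and 4.92 at rest, with dim values in stimulated MCT and resting NMuMG. The changes were 0.57, -0.04, -0.79 and 1.07, higher in both mammary lines and lower in both kidney lines. The mean response was -0.41 in kidney and 0.82 in mammary lines, a difference of -1.23 (SE 0.49) that did not pass (limma adjusted p = 0.823) and was -0.69 with an offset of 50. Myl9 and Tpm2 were the 2 of 9 members with lower values in both kidney and higher values in both mammary lines, against 6.27% of all tested genes.

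Csrp1, a LIM protein of the smooth muscle cytoskeleton, was at 11.92 in EpH4 and 10.93 to 11.05 in the other 3 lines after stimulation, against 11.78 and 10.91 to 11.34 at rest. Its mean change was -0.02 ± 0.19 (SD, n = 4; limma adjusted p = 0.955), and that of its other probe set -0.08.

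Counted line by line at a 2-fold limit, the higher members were Tnnt2 alone in EpH4 (1 of 9, against 1.32% of tested genes), Tnnt2 and Tagln in mProx (2 of 9, 2.77%) and Tnnt2 and Actg2 in MCT (2 of 9, 2.76%). In NMuMG they were Tnnt2, Tagln, Actg2 and Myl9 (4 of 9, 3.01%). No member was 2-fold lower in any line, where 1.04%, 2.49%, 2.73% and 1.99% of genes were. With a single pair of arrays per line, no replicate stands behind a count of this kind. Tagln and Actg2 entered the test through their stimulated arrays, so the counts that hold them are not set against the share of all genes as a result. The median change of the members was 0.53, 0.25, -0.07 and 0.80 in EpH4, mProx, MCT and NMuMG, against 0.00, 0.00, -0.02 and 0.04 for all tested genes.

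**Figure D3:**
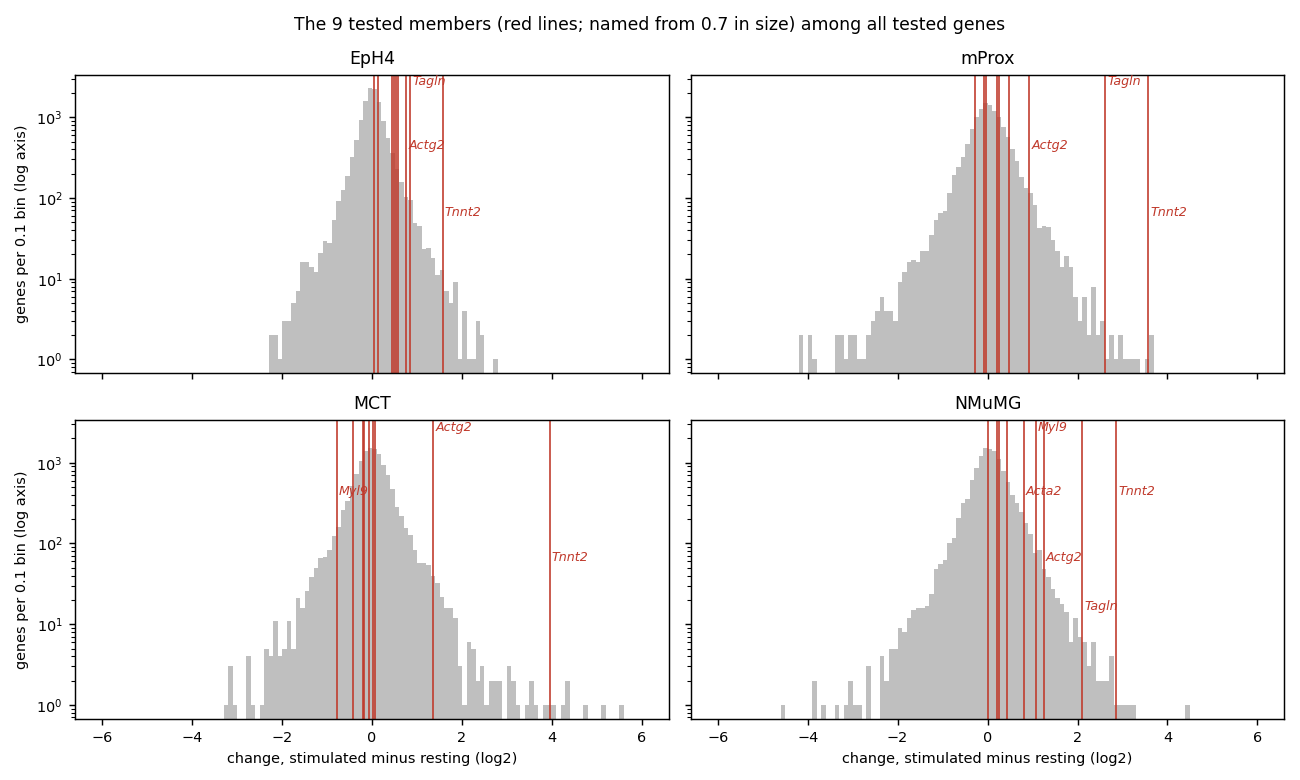
Number of tested genes (y axis, log scale) by change in each line (x axis, stimulated minus resting, log2), with red lines at the 9 tested members, named where the change is at least 0.7 in size. Tnnt2 is in the right tail of each panel, at 1.57 in EpH4 and 2.85 to 3.95 in the other lines, and Tagln joins it in mProx and NMuMG.

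Of 31 other smooth muscle contractile genes 30 were on the array and 21 were tested, and 0 passed in either direction, where 0% of all genes passed in the 4 lines and 0.127% in the 3. At an unadjusted p under 0.05, 6 were higher and 1 was lower in the 4 lines, against 11.6% of all genes in either direction. Their median change was 0.09, against 0.01 for all tested genes. Myh11, Lmod1, Ppp1r14a, Pdlim3, Aoc3 and Itga8, among them the smooth muscle myosin heavy chain (Myh11) and leiomodin (Lmod1), were dim on all 8 arrays.

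Among the tested ones, Pdlim7, a LIM protein of actin fibres, was higher by 0.80 ± 0.38 and Palld, which encodes palladin, by 0.77 ± 0.74 (SD, n = 4 each; limma adjusted p = 0.134 and 0.306). Csrp2 was higher by 0.38 ± 0.25 (limma adjusted p = 0.325). Mylk, the kinase that phosphorylates the myosin light chain, was lower in 3 lines, at -1.93 in mProx, -0.94 in MCT and -1.45 in NMuMG, and higher by 0.63 in EpH4. It did not pass in the 4 lines (limma adjusted p = 0.398) or in the 3 lines (0.0730).

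The other cardiac and skeletal muscle genes were mostly too dim to test. Of 28 such genes 11 were tested, and 0 passed in either direction, where 0% of all genes passed in the 4 lines and 0.127% in the 3. At an unadjusted p under 0.05 1 was higher, against 11.6% of all genes in either direction, and the median change was 0.19. Tnnt1, Tnnt3, Tnni1, Tnni3, Myh7, Myl2, Myl7, Actn2, Nppa and Myl1 were dim on all 8 arrays, so neither other troponin T gene had a measurable level. The troponin genes Tnni2 and Tnnc2 were not tested, and each was above the filter level in 1 line, where it was lower after stimulation. Tnni2 was at 6.53 in stimulated and 7.32 in resting EpH4, and Tnnc2 at 5.89 in stimulated and 7.11 in resting MCT. The troponin C gene Tnnc1, shared by heart and slow muscle, was higher in each line by 0.30 to 0.62, with levels of 6.72 to 7.63 in stimulated and 6.11 to 7.17 in resting cells (mean change 0.49 ± 0.15, SD, n = 4; limma adjusted p = 0.298). Mybpc3, Ttn and Nppb had mean changes of 0.41, 0.50 and 0.35, with an adjusted p of 0.523, 0.608 and 0.580 in limma. Set against these, the mean change of Tnnt2 was 2.98.

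Of the SRF cofactors and targets 20 genes were on the array (24 symbols, since 4 genes were listed under an older symbol too) and 19 were tested. None passed in either direction, as for 0% of all genes in the 4 lines and 0.127% in the 3. At an unadjusted p under 0.05 6 were higher, against 11.6% of all genes in either direction, and the median change was 0.18. Ccn2, a matricellular protein gene and SRF target, was higher in each line, at 1.62, 1.28, 3.04 and 0.61 in EpH4, mProx, MCT and NMuMG (mean 1.64 ± 1.02, SD, n = 4; limma adjusted p = 0.135). Ccn1 was higher by 0.75 ± 0.53 and Ankrd1 by 0.64 ± 0.61 (limma adjusted p = 0.212 and 0.303). Egr1 had -1.49 in mProx and -1.79 in NMuMG against 0.14 in EpH4 and 0.83 in MCT (limma adjusted p = 0.620). Srf itself changed by 0.06 ± 0.10 and was at 8.99 to 9.77 in stimulated and 8.93 to 9.61 in resting cells. Its muscle cofactor gene Myocd was dim on all 8 arrays.

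**Figure D4:**
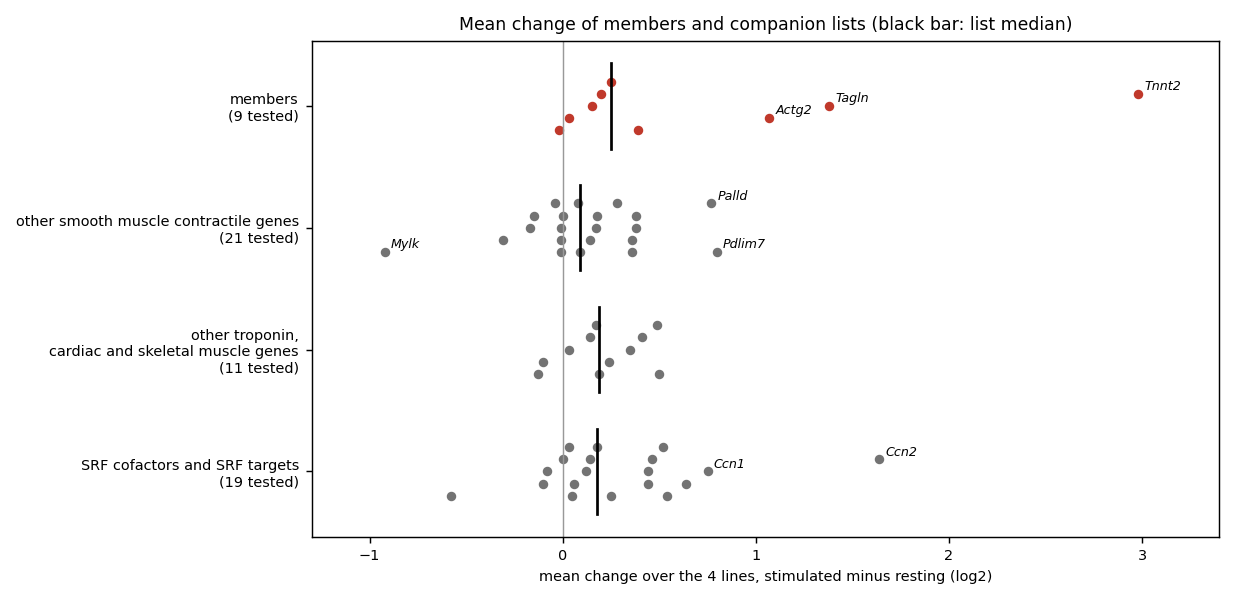
Mean change over the 4 lines (x axis, stimulated minus resting, log2) of each tested gene, for the members (red) and the 3 companion lists (grey), marker lists left out, 1 point per gene with the list median as a black bar. Tnnt2 at 2.98 lies apart from the other points drawn, the next being Ccn2 at 1.64 and Tagln at 1.38. Vertical offsets within a row separate the points.

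By level over the 8 arrays, the non-member genes most like Tnnt2 were Plaat3 (Pearson r = 0.963), Spindoc (0.955), Vegfa (0.954), Capg (0.948) and Acsbg1 (0.947). Their changes were higher in each of the 4 lines. Those most like Tagln were Pcdh19 (0.965), Dpp3 (0.964), 1700003F12Rik (0.959), Ndrg4 (0.958) and Pnmt (0.956), with NMuMG as their highest line after stimulation. The 8 arrays are 4 pairs of 1 line each, so these correlations mix line and treatment and are descriptions only.

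The labelled epithelial identity was uneven. The 14 epithelial markers summed to 51683, 5746, 10671 and 20199 in EpH4, mProx, MCT and NMuMG after stimulation, against 45567, 3688, 6698 and 16875 at rest (normalized linear signal, offset removed). Cdh1, which encodes E-cadherin, was dim in mProx and MCT on both arrays, whereas Krt18 was at 10.34 to 13.14 in stimulated and 9.01 to 12.86 in resting cells.

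Markers of cells that carry these contractile genes were also read. Of 11 basal and myoepithelial markers 6 were tested and 0 passed, with sums of 712 to 3942 in stimulated and 643 to 2586 in resting cells. Krt14, a defining marker, was at 11.09 in stimulated and 10.22 in resting EpH4 and dim in the other lines, and Myh11 was dim on all arrays. The other tested markers did not share 1 highest line. After stimulation Itgb4 was highest in EpH4 (9.36) and Itga6 in mProx (11.46). Krt5 (6.9), Cdh3 (8.03) and Nrtn (8.08) were highest in MCT. Of 9 vascular smooth muscle and pericyte markers 3 were tested and 0 passed, with sums of 383 to 605 in stimulated and 200 to 689 in resting cells. Myh11, Myocd, Lmod1 and Rgs5 were dim on all 8 arrays. The 3 tested ones, Des, Cspg4 and Notch3, had mean changes of 0.36, 0.43 and 0.32 (limma adjusted p = 0.689, 0.557 and 0.737). None of them was higher in each line, against 10.3% of all tested genes. Notch3 was well above the filter level, at 8 to 8.94 in stimulated and 7.21 to 9.21 in resting cells.

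The 12 fibroblast markers summed to 8776 to 30720 in stimulated and 7725 to 28781 in resting cells. Their sum was higher after stimulation in each line, but a sum of linear signals rests mostly on the brightest genes, such as Fn1. Of the 10 tested markers 4 were higher in each line, against 10.3% of all tested genes, 3 had a lower mean and 0 passed. Col1a1 was higher by 1.42, over dim resting values in mProx (4.68) and MCT (4.13). Fn1 was higher by 0.96, at 0.17, 1.43, 2.14 and 0.11 in EpH4, mProx, MCT and NMuMG. Col1a2 and Col3a1 had mean changes of -0.1 and -0.17, and Dcn was at 7.53 in stimulated and 10.56 in resting mProx. Vim was dim in EpH4 on both arrays and at 13.32 to 13.47 in stimulated and 13.2 to 13.31 in resting cells of the other lines. Of 10 skeletal and cardiac markers 4 were tested and 0 passed, with sums of 285 to 421 in stimulated and 219 to 297 in resting cells, and Myog, Myf5, Myf6, Myh7 and Tnni3 were dim on all arrays. Nkx2-5, a cardiac transcription factor, was higher in each line by 0.42 to 1.21 (limma adjusted p = 0.228), while the muscle regulator gene Myod1 had a mean change of -0.17, Ckm 0.19 and Ttn 0.50. Of the untested ones, Myog, Myf5 and Myf6 had higher means and Myh6, Myh7 and Tnni3 lower ones, without exact sizes. Endothelial and leukocyte markers summed to 86 to 265 in stimulated and 101 to 240 in resting cells, with Pecam1, Tek and Ptprc dim on all arrays and 0 passing. The part of other cells in the values of the members was not tested, and in bulk RNA more cells of a type cannot be told apart from more RNA per cell.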

How the data were processed

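The deposited table holds array intensities on a linear scale, 1 per probe set and array, which came from MAS5 per the submitters' processing notes. No source used here gives the MAS5 version, scaling target or detection calls. From the deposited intensities, 64 control probe sets were removed, 10.6 (the 25th percentile of positive signals) was added, log2 was taken and the 8 arrays were quantile-normalized, since their median log2 values differed by 0.43. For each of 18193 genes the brightest probe set on average stood for the gene, one with the cross-hybridisation suffix only where no other existed. Genes with a mean level at or above the 40th percentile, 5.27, were tested.

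Tests used limma 3.58.1 in R 4.3.3 (lmFit and eBayes with an intensity trend), with Benjamini-Hochberg adjustment over all 12640 tested genes at 0.05. The line was a block in each test of a response. Arrays were paired by line name, and the deviations of paired arrays from their group means correlated at 0.906, 0.828, 0.813 and 0.876. The 3-line response was fitted on its 6 arrays. The fits were run on simulated data with the same change in each line and the spread shuffled among genes. A change of 1 was recovered for 68.0% of 50 genes in the 4 lines and 22.0% in the 3 lines. For a change of 3 it was 98.0% and 88.0%. False calls were 11 and 6 of 12640 genes. The lines here differ in their changes, so these shares do not carry over to the data. The number of arrays limits the precision, and dim values limit it further.

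Members and companion lists were chosen with earlier results of these data known. Named genes are the 10 members, up to 4 tested genes per companion list with the mean change of largest size, and the 5 genes most like Tnnt2 and Tagln. Other list genes named (dim genes, Srf, Tnni2, Tnnc2) and the marker genes named, such as Cdh1, were picked after their values were seen. Alternatives covered scaling, offset, filter, trend, probe set choice, line block and each line left out. Gene symbols are those of the platform annotation.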

Additional observations from a re-analysis of the deposited data

Results flagged for a closer look

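Csrp1 in stimulated EpH4 was at a log2 level of 11.92, while the other 3 stimulated lines lay between 10.93 and 11.05. The gap to the nearest line made up 0.880 of the range of the 4 arrays, above Dixon's critical value for 4 samples. In all, 30 groups of 4 values were examined, the stimulated levels, resting levels and changes of the 10 genes. The stimulated Csrp1 group was the 1 that exceeded the limit, and chance alone gives about 1 in 20. EpH4 was also the highest line at rest, at 11.78. On the other Csrp1 probe set stimulated EpH4 was at 11.36 and the other lines at 10.04 to 10.46, and that gap was not examined.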

How the results depend on the processing

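The number of members past the threshold in the 4 lines, 0, was 2 on the values as deposited (Tnnt2 and Tagln), 1 after median centring and 1 with an offset of 50 (Tnnt2 each). Leaving out 1 line in turn gave 0 to 1, the 1 being Tnnt2 without EpH4, which is the 3-line fit itself. In the 3 lines the number, 1, was 2 on the values as deposited and 0 with no filter, with no intensity trend and with no replicate block. Leaving out 1 line in turn gave 1 to 2, the 2 without MCT. The number was 0 in each alternative run for the 4 other comparisons. In the fit without the pairing, that is with no replicate block, Tnnt2 kept its change of 3.46 in the 3 lines at an adjusted p of 1.00 in limma, and the count in the 4 lines stayed 0. Genes past the threshold overall ranged from 0 to 236 in the 4 lines and from 0 to 211 in the 3 lines (8 without mProx, 27 without MCT, 73 without NMuMG, 92 after median centring). They ranged up to 4 for the EpH4 difference, 57 for kidney against mammary (without MCT), 6 for resting kidney against mammary and 12 for resting EpH4. A fit of the 3-line response on all 8 arrays, added after the data were seen, gave 26 genes and kept Tnnt2. On the values as deposited, the median change of all tested genes was -0.28, -0.11, -0.25 and 0.35 in EpH4, mProx, MCT and NMuMG.

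Tnnt2, Tagln, Acta2, Actg2 and Cnn2 kept a positive mean change in each of the alternatives run for both responses. The differences of EpH4 from the other lines could not be fitted without EpH4. With 1 line left out in turn, the means of the 4 lines ran from -0.09 to 0.53 for Myl9, -0.04 to 0.18 for Tpm1 and -0.08 to 0.07 for Csrp1, and those of the 3 lines from -0.41 to 0.52 for Myl9, -0.09 to 0.25 for Tpm1, -0.13 to 0.17 for Tpm2 and -0.15 to 0.03 for Csrp1. Small changes turned sign. In the 4 lines Csrp1 was 0.06 after median centring and 0.07 without mProx, Tpm1 -0.04 without mProx and -0.04 without NMuMG, and Myl9 -0.09 without NMuMG. In the 3 lines Tpm2 was -0.03 on the values as deposited and -0.13 without NMuMG, Csrp1 0.02 after median centring and 0.03 without mProx, Tpm1 -0.09 without mProx and -0.09 without NMuMG, and Myl9 -0.41 without NMuMG. None of these passed in either setting, and the cause was not tested. Dim values limit the sizes for Actg2, Tagln and Cnn1.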
